A study of Mus musculus with 16 samples.

Results

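The arrays of untreated diabetic wounds were compared between the labelled days. Of the 16 arrays of the series, 4 belonged to the db/db group, 2 labelled day 7 and 2 labelled day 14 after wounding, and they were chosen by group and labelled day alone. These wounds were made on the back of diabetic females of strain C57BLKS/J Iar-+Lepr db/+Lepr db, here called db/db and 10 weeks old, which lack a working leptin receptor, become obese and diabetic, and received no treatment on the wound. The db/db + vehicle group, of the same strain, age and sex, had sesame oil applied to the wound every day, and the WT group was untreated female C57BL/6J mice of 10 to 12 weeks. All the mice had full-thickness skin wounds, and total RNA came from a homogenate of the wound with the intact skin around it. Each group had 2 arrays per labelled day, described as biological replicates. Whether the arrays of one group came from separate mice or from both wounds of one mouse is not given in the sources used here, so p-values measure the spread between these samples.

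The labelled day and the day of scanning coincided. All arrays labelled day 7 were read on 1 scan day, on slides 1 and 2, and all arrays labelled day 14 on another scan day, on slides 3 and 4. Within the db/db group, the labelled day 7 arrays lay on separate slides and both labelled day 14 arrays on slide 3. Labelled day, scan day and slide therefore cannot be told apart in this comparison. The fold changes of the db/db group over the WT group that the paper prints for either day matched, within 1%, the arrays of the other labelled day. Over the 40 entries checked, 40 were matched by arrays of the other labelled day and 0 by arrays of the same one. The data do not tell which of the 2, the label or the printed day, was exchanged. Arrays are named by their labels throughout, and "higher" and "lower" refer to the arrays labelled day 14 relative to those labelled day 7, with no order in time.

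As background, a skin wound heals through overlapping phases. Neutrophils enter first and carry granules of antimicrobial proteins and proteases, and macrophages follow and clear them. Granulation tissue then forms, as fibroblasts lay down hyaluronan, fibronectin and collagen, capillaries sprout into it, and keratinocytes close over it from the edges. In diabetic mice the leukocyte phase lasts longer and closure is slow.

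Levels are given as the log2 signal of a probe relative to the 75th percentile of its array, so that a level of 0 equals that percentile. They are comparable between arrays but not between probes. A difference is the mean level of the arrays labelled day 14 minus that of the arrays labelled day 7, on the log2 scale. The signal at the 75th percentile was 2318 and 1824 on the db/db arrays labelled day 7 and 2352 and 2548 on those labelled day 14, and 76.2%, 76.2%, 74.0% and 70.1% of the probes of the same arrays were well above background. A probe was tested where the 2 arrays of at least 1 labelled day both detected it well above background. It was called where its adjusted p from limma was below 0.05 and its fold change above 2. The smallest p of an exact permutation test with 2 arrays against 2 is 0.333.

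Of 29463 probes tested, 2673 (9.07%) were called, 219 (0.743%) in the higher and 2454 (8.33%) in the lower direction. The genes with the largest negative differences were those of neutrophil granules, such as Ltf, Ngp and Camp, and the genes with the largest positive differences included Has1, Tnfaip6 and Ptx3 of the hyaluronan matrix, Esm1 of sprouting endothelium and Ifit1 of the interferon response. Read through 1 probe for each named gene, 867 of 16811 genes (5.16%) were called, 0.874% higher and 4.28% lower. The counts of gene lists below, 1 probe per gene, are set against these shares. The arrays of the labelled days did not overlap for 18413 probes (62.5%). Between the 2 replicates, 9.67% of the probes lay beyond 2-fold on the arrays labelled day 7 and 3.14% on those labelled day 14, whereas 14.98% did so between the means of the labelled days. With quantile normalization the median of all probes was 0.06 in place of −0.09, and 1679 probes were called, 23.2% of them higher, compared with 8.19% of the calls as scaled by the 75th percentile.

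The checks of the labels gave the following. Xist, which is expressed from the inactive X chromosome of females, was well above background on all 4 db/db arrays with both of its probes, and the probe of Ddx3y, which lies on the Y chromosome, did not pass the filter. Lepr, the gene mutated in these mice, was read by 3 probes, none of which was called, with differences of 0.54, −0.86 and 0.23. The skin markers Krt10, Krt14 and Col1a1 were well above background on all 4 arrays.

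Most of the lower calls were on dim probes and on probes without a gene symbol. With the probes split by mean level into 3 sets of 9821, 16.9% of the dimmest set were called lower, compared with 6.28% of the middle set and 1.81% of the brightest set. The share called higher stayed between 0.662% and 0.906% in the same sets. Of the 7445 probes without a symbol, 19.6% were called lower, compared with 4.53% of the 22018 named probes. Where a gene called lower had more than 1 probe tested, all of its probes were called for 37 of 326 genes, and a single probe was called for 269. The db/db + vehicle arrays had the same sign of difference for 2358 of the 2454 probes called lower, with a median of −1.48 beside −1.82 in the db/db group. The WT arrays, which were read on the same scan days, had the same sign for 1721, with a median of −0.22.

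**Figure D1:**
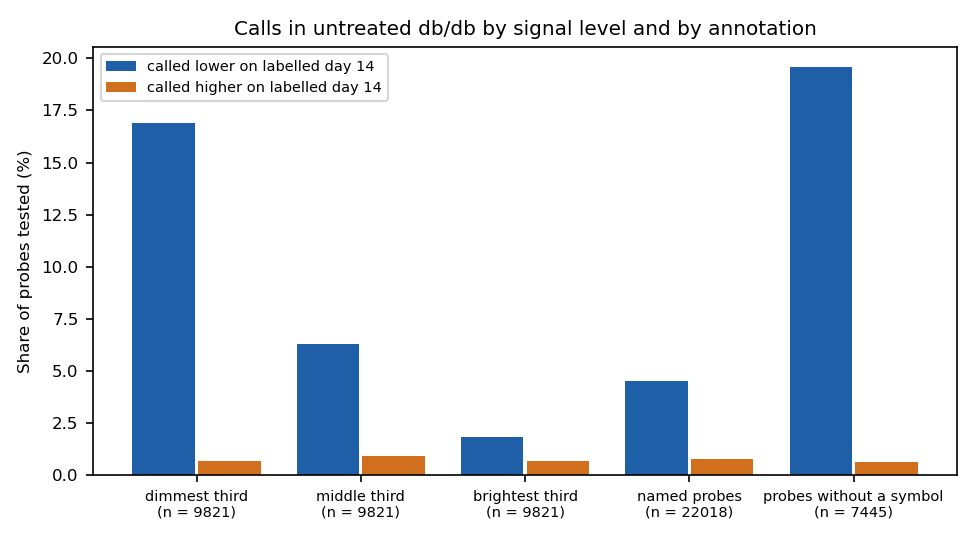
Share of the probes tested (y axis, percent) that was called lower (blue) or higher (orange) on the db/db arrays labelled day 14, for 3 sets of equal size by mean level over the 4 db/db arrays and for probes with and without a gene symbol. Lower calls made up 16.9% of the dimmest set and 1.81% of the brightest set.

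Long noncoding RNAs that stay in the nucleus or host small RNAs were called lower in part. They were grouped after their values were seen, so their counts are a description. Of 22 tested, 11 were called lower and 0 higher, with a median of −1.19, beside −1.28 in the db/db + vehicle group and 0.03 in the WT group. Malat1, an abundant RNA of nuclear speckles, had levels of 1.51 and 2.30 on the arrays labelled day 7 and −0.44 and −0.22 on those labelled day 14, a difference of −2.24 (SE 0.26, adjusted p = 0.00132). Neat1, the scaffold of paraspeckles, had levels of 5.33 and 6.04 on the arrays labelled day 7 and 3.73 and 3.71 on those labelled day 14, a difference of −1.97 (SE 0.35, adjusted p = 0.00705). The db/db + vehicle group differed by −2.48 for Malat1 and −1.84 for Neat1, and the WT group by −0.65 and 0.13. Xist differed by −1.28 and −1.39 with its 2 probes. In all 3 cases the 2 labelled day 7 arrays lay above both labelled day 14 arrays, and 62.5% of all probes did not overlap in either direction. The part of nuclear or unprocessed RNA in the other lower calls was not tested.

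**Figure D2:**
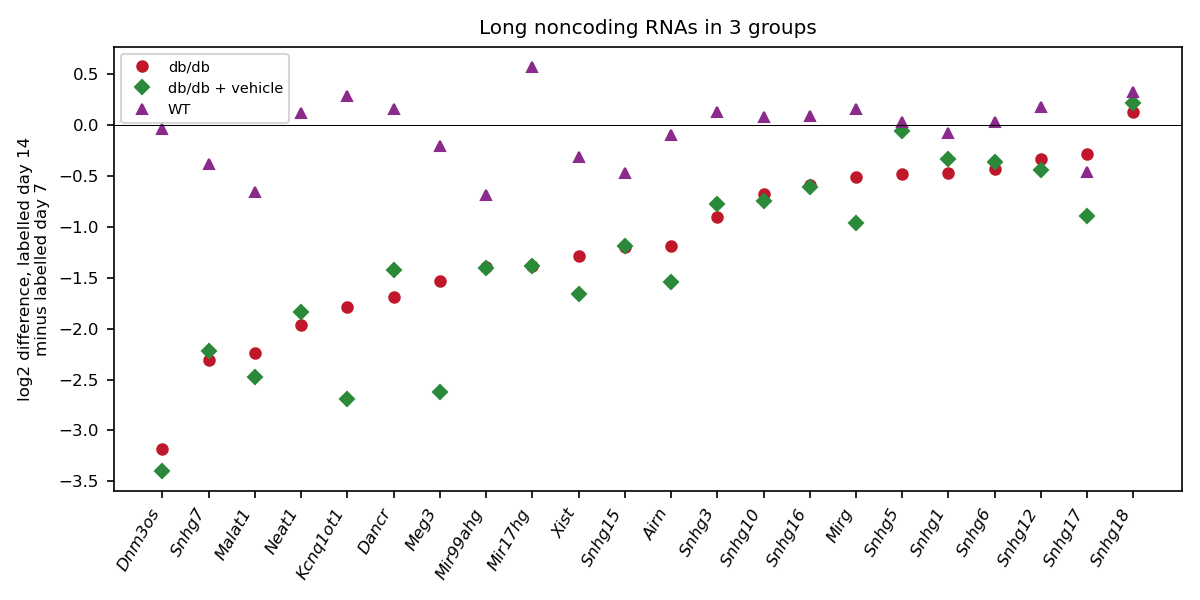
Log2 difference between the labelled days (y axis) for the 22 long noncoding RNAs tested, in the db/db (circles), db/db + vehicle (diamonds) and WT (triangles) groups. The db/db and db/db + vehicle values have the same sign for each RNA, from Dnm3os (−3.18 and −3.40) to Snhg18 (0.13 and 0.22). They are furthest apart for Meg3 (−1.53 and −2.62), and the WT values scatter around 0.

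Of the 34 gene lists, that of neutrophil granules held the most lower calls. Of 30 list genes tested, 11 were called lower and 0 higher, compared with 4.28% of all named genes called lower, and the median difference was −1.02 beside −0.02 for all named genes. All 30 had a negative difference. The arrays of the labelled days did not overlap for 22, beside 62.5% of all probes. The summed level of the list ran from 756 to 844 times the 75th percentile on the arrays labelled day 7 and from 418 to 566 times on those labelled day 14. A summed level is weighted toward the brightest probes, here among them those of S100a8 and S100a9, which were not called. RNA came from whole wounds, so fewer neutrophils and less RNA per neutrophil cannot be told apart.

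Ltf, the iron-binding lactoferrin of secondary granules, had levels of 3.25 and 1.76 on the arrays labelled day 7 and −3.61 and −2.52 on those labelled day 14. Its difference was −5.57 (SE 0.74, adjusted p = 0.00231). Ngp, another secondary granule protein, had levels of 2.67 and 1.09 on the arrays labelled day 7 and −4.38 and −2.13 on those labelled day 14, a difference of −5.13 (SE 1.18, adjusted p = 0.0196). Camp, the precursor of the antimicrobial peptide cathelicidin, had levels of 4.11 and 2.66 on the arrays labelled day 7 and −1.75 and −0.62 on those labelled day 14, a difference of −4.57 (SE 0.80, adjusted p = 0.00675), and both of its probes were called. In these 3 genes every array labelled day 7 lay above every array labelled day 14, and the gap was wider than the difference between replicates. The 3 were picked for large differences, so this is no further result. The labelled days did not overlap for 62.5% of all probes either. Itgb2l, an integrin chain of neutrophils, had levels of −2.80 and −3.69 on the arrays labelled day 7 and −9.56 and −7.66 on those labelled day 14. Neither array labelled day 14 detected it well above background, so that it was at least 16.1-fold higher on those labelled day 7. Itgb2l thus passed the filter through the arrays labelled day 7 alone. The adjusted p of 0.000788 from limma belongs to its difference of −5.37 without the bound, which sets a detected signal against background. Among the proteins of primary granules, Mpo, the myeloperoxidase, differed by −3.36 (SE 0.84, adjusted p = 0.0267), Prtn3, a serine protease, by −2.19 (adjusted p = 0.0176) and Ctsg, cathepsin G, by −2.02 (adjusted p = 0.0172). The replicates of Mpo labelled day 7 were far apart, at 2.98 and 0.57. Lcn2, which sequesters bacterial siderophores, and Csf3r, the receptor of the growth factor that drives granulopoiesis, were both called lower with a difference of −1.62 and −1.63. Pglyrp1 (−1.86) and Trem3 (−1.28) completed the called genes.

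Other abundant neutrophil genes of the list were not called. S100a8, a subunit of calprotectin, had levels of 7.14 and 7.46 on the arrays labelled day 7 and 6.26 and 6.72 on those labelled day 14 (adjusted p = 0.255). S100a9, the other subunit, had levels of 7.60 and 7.91 on the arrays labelled day 7 and 7.41 and 7.40 on those labelled day 14 (adjusted p = 0.698). Elane, the neutrophil elastase, differed by −0.28 (adjusted p = 0.529) and Mmp8, the neutrophil collagenase, by −0.47 (adjusted p = 0.656). The 19 members that were not called reached from −2.24 for Cd177, whose replicates were far apart, to −0.22 for Il1r2. The number of neutrophil granule genes called depended on single arrays: it was 2 without labelled day 14 replicate 1, 5 without labelled day 14 replicate 2, 6 without labelled day 7 replicate 1 and 6 without labelled day 7 replicate 2, and the median lay between −1.52 and −0.63. It was 0 where the 4 db/db arrays were fitted alone, in which 314 probes were called in all. In the db/db + vehicle group the median of the list was −0.22 and in the WT group 0.35, with no gene called between the labelled days in either. The difference from the db/db + vehicle group passed the test for 0 of the 30 genes, with a lowest adjusted p of 0.383.

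**Figure D3:**
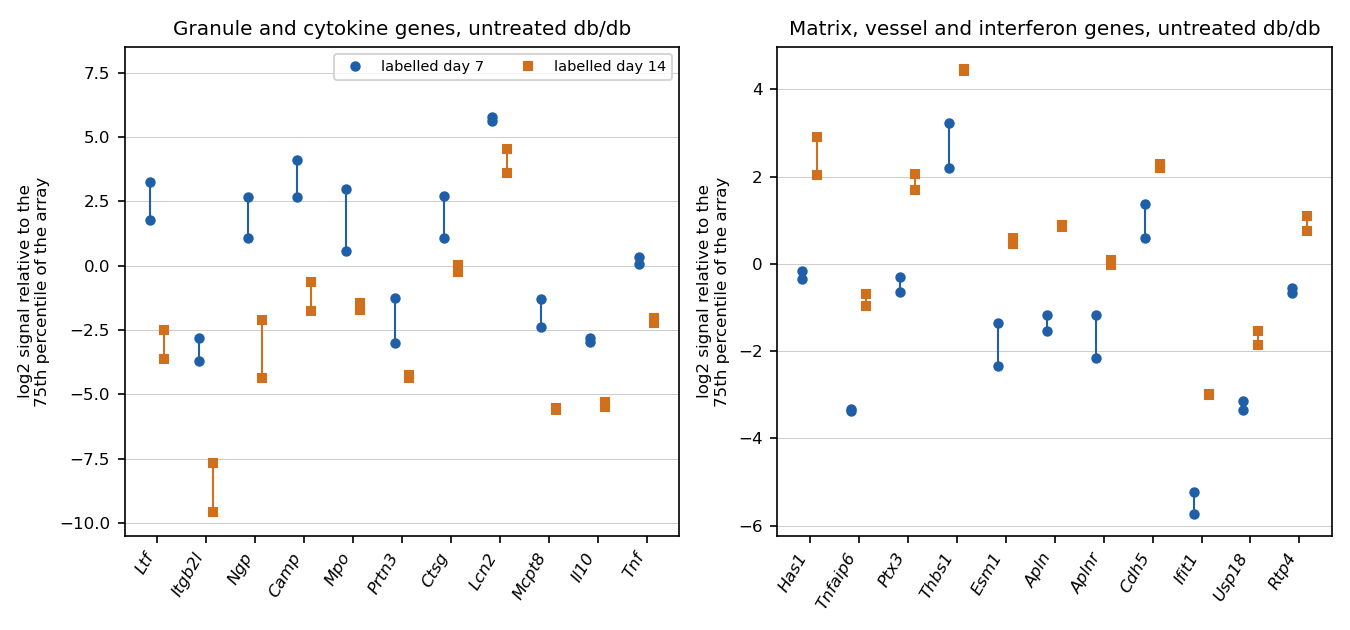
Level on each db/db array (y axis, log2 signal relative to the 75th percentile of the array) for genes of neutrophil granules and cytokines and for genes of the matrix, vessels and the interferon response. Circles are the arrays labelled day 7 and squares those labelled day 14. The genes were picked among those called, so that their labelled days do not overlap is no further result. The same held for 62.5% of all probes.

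The start regions of Ltf, Ngp and Camp are shown because these 3 granule genes had the largest negative differences among the named genes well above background on all 4 arrays, and because all 3 lie on chromosome 9. Each run covers 250 bases before to 50 bases after the start in RefSeq (GRCm38.p6), 5′ to 3′ on the strand of the gene. Capitals mark matches, on either strand, to letters of motifs of myeloid and inflammatory factors: GAGGAA for PU.1, TTNNGNAA for C/EBP, TGANTCA for AP-1, and for NF-kB GGG followed by CC with 5 bases of any kind between them. Matches may overlap.
Ltf, chr9:111019042-111019341, plus strand: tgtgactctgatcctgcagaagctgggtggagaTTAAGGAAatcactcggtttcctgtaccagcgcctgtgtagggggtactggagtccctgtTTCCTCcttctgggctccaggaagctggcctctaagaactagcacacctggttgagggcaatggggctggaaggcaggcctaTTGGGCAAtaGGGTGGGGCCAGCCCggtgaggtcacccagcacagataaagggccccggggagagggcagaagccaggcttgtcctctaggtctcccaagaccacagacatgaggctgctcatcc
Ngp, chr9:110419558-110419857, plus strand: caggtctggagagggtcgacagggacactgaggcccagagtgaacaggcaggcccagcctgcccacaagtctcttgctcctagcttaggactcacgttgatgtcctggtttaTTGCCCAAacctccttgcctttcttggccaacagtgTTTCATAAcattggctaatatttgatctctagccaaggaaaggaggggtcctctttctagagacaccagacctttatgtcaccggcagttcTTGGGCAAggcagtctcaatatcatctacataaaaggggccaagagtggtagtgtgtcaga
Camp, chr9:109849407-109849706, minus strand: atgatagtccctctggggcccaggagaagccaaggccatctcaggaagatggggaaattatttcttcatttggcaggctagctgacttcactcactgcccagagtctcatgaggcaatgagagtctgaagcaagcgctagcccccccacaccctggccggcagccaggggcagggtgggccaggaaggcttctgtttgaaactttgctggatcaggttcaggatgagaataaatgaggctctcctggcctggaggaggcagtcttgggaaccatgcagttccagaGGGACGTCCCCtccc
The C/EBP letters occurred 2 times in the window of Ltf, 3 times in that of Ngp and 0 times in that of Camp. Of 32851 windows of this length in the table, 40.7% held at least 1 such match. The PU.1 letters occurred 1 time, in Ltf, and were held by 28.3% of all windows. Ltf had 3 and Camp 2 overlapping matches to the NF-kB letters, which 50.8% of all windows held. A match is a run of letters and not a measured binding site.

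Cytokine genes showed a small number of large differences. Of 24 tested, 2 were called lower and 0 higher, with a median of −0.47. Il10, which restrains inflammatory cytokine production, had levels of −2.96 and −2.83 on the arrays labelled day 7 and −5.31 and −5.49 on those labelled day 14. Its difference was −2.51 (SE 0.19, adjusted p = 0.0003), and it was called with each array left out in turn. Tnf, the macrophage cytokine that induces adhesion molecules and other cytokines, had levels of 0.07 and 0.34 on the arrays labelled day 7 and −2.02 and −2.21 on those labelled day 14, a difference of −2.32 (SE 0.46, adjusted p = 0.0106). Tnf lost its call without either array labelled day 14 and without labelled day 7 replicate 2. The interleukin 1 genes were not called: Il1b, the form secreted by macrophages, had levels of 3.46 and 3.95 on the arrays labelled day 7 and 3.80 and 3.75 on those labelled day 14 (adjusted p = 0.972) and Il1a, the form kept in cells until damage, differed by −1.17 (adjusted p = 0.415). Il6, an inducer of the acute phase, had levels of −0.14 and 0.48 on the arrays labelled day 7 and 3.08 and 2.12 on those labelled day 14, and its difference of 2.43 did not pass the test (adjusted p = 0.109).

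The chemokines that recruit neutrophils were not called. Of 10 genes of this list, 0 were called by limma after adjustment and 0 at an unadjusted p below 0.05 with a fold change above 2. Of all probes, named or not, 12.7% passed this unadjusted rule, 1.4% higher and 11.3% lower. Of 16811 named genes read through 1 probe each, as in the lists, 276 passed it higher and 1093 lower. The median of the list was 0.49. Cxcl1, which acts through Cxcr2, had levels of 1.47 and 1.50 on the arrays labelled day 7 and 2.91 and 2.64 on those labelled day 14 (adjusted p = 0.174). Cxcl2, a close relative, had a difference of 0.63 (adjusted p = 0.686), and Csf3, the granulocyte growth factor, of −0.85 (adjusted p = 0.653). Among 18 CC chemokines and receptors, 0 were called and 2 passed the unadjusted rule, both lower. Ccl2, which recruits monocytes, differed by 0.55 and Ccl3 by −0.35. The acute phase list had 0 of 12 called by either rule, with a median of −0.51 and with Saa3 at −0.84 and Saa1 at −0.98.

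Macrophage genes held few calls. Of 22 tested, 2 were called lower and 0 higher, with a median of −0.37. Lyz2, a lysozyme of macrophages and neutrophils, had levels of 4.26 and 5.03 on the arrays labelled day 7 and 3.41 and 3.10 on those labelled day 14, a difference of −1.39 (SE 0.37, adjusted p = 0.035). Marco, a scavenger receptor, had levels of −0.09 and 2.32 on the arrays labelled day 7 and −1.36 and −0.97 on those labelled day 14, a difference of −2.28 (SE 0.65, adjusted p = 0.0439), so that its replicates labelled day 7 differed by about as much as the labelled days. Neither was called without labelled day 7 replicate 2 or without either array labelled day 14. The surface marker Adgre1 (F4/80) differed by −0.45 (adjusted p = 0.326) and Csf1r, the receptor of the macrophage growth factor, by −0.44 (adjusted p = 0.235). Of 16 genes of alternatively activated macrophages, 0 were called and 2 passed the unadjusted rule, both higher. Arg1, an arginase of these cells, had levels of 4.39 and 4.21 on the arrays labelled day 7 and 4.29 and 4.29 on those labelled day 14, and Chil3, which encodes Ym1, of 3.26 and 2.11 on the arrays labelled day 7 and 3.31 and 3.87 on those labelled day 14 (adjusted p = 0.36).

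Genes of other leukocytes were also called lower in small numbers. Mcpt8, a protease of basophils, had levels of −1.28 and −2.37 on the arrays labelled day 7 and −5.61 and −5.54 on those labelled day 14, a difference of −3.75 (SE 0.90, adjusted p = 0.0234), and lost its call whichever db/db array was left out. Mcpt1, a mast cell protease, was not well above background on either array labelled day 14 and was at least 6.51-fold higher on those labelled day 7. The adjusted p of 0.0119 from limma belongs to its difference without this bound. Mcpt1 was the only called gene among 10 of the mast cell list, all with negative differences and a median of −0.90. Cpa3 and Cma1, which mark connective tissue mast cells, differed by −1.01 and −1.15 (adjusted p = 0.441 and 0.19). The T and NK cell list had 3 of 20 called lower, namely Gzmb, a granzyme of cytotoxic cells (−1.98), Cd8a and Cd247. The last 2 were not well above background on either array labelled day 14, with bounds of at least 2.35-fold and 1.38-fold, and a second probe of Cd8a was not called. With a floor on dim signals or with detection on every array, 1 of the 20 was called, and with 1 array left out 0 or 1. Cd3e and Cd3d, of the T cell receptor complex, differed by 0.37 and −0.38 (adjusted p = 0.478 and 0.69). Of 14 genes of antigen presentation, 0 were called by either rule.

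Further genes with the largest negative differences were of other kinds. Gm15056, which belongs to a family of beta-defensins, had levels of −0.14 and −0.70 on the arrays labelled day 7 and −5.41 and −3.99 on those labelled day 14, a difference of −4.28 (SE 0.81, adjusted p = 0.00902). Ceacam16, a cell adhesion molecule, had levels of 0.05 and 0.59 on the arrays labelled day 7 and −3.28 and −3.57 on those labelled day 14, a difference of −3.75 (SE 0.59, adjusted p = 0.00462), and it was called under every alternative and without each array. The db/db + vehicle group differed by −3.19 in Ceacam16 and by −1.07 in Gm15056. Cstdc1, a cystatin-like gene (−3.61, adjusted p = 0.00546), and 9530059O14Rik (−3.68, adjusted p = 0.00959) differed by −3.98 and −3.21 in the db/db + vehicle group. Pilrb2, Rpf1 and Ppm1n were not well above background on either array labelled day 14 and were at least 8.64-fold, 7.99-fold and 6.89-fold higher on those labelled day 7, and for Rpf1 a second probe was not called.

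Has1, Tnfaip6 and Ptx3, whose products take part in the hyaluronan matrix, were among the genes with the largest positive differences. Of 16 hyaluronan genes grouped after their values were seen, 4 were called higher and 0 lower, 7 had a negative difference, and the median was 0.06. Has1, which synthesizes hyaluronan, had levels of −0.36 and −0.17 on the arrays labelled day 7 and 2.91 and 2.04 on those labelled day 14, a difference of 2.74 (SE 0.67, adjusted p = 0.0248), and it lost its call whichever db/db array was left out. Tnfaip6, which cross-links hyaluronan through heavy chains of a serum inhibitor, had levels of −3.33 and −3.37 on the arrays labelled day 7 and −0.69 and −0.96 on those labelled day 14, a difference of 2.52 (SE 0.48, adjusted p = 0.00955), and all 3 of its probes were called. Ptx3, a long pentraxin that binds Tnfaip6 in the same matrix, had levels of −0.65 and −0.30 on the arrays labelled day 7 and 1.69 and 2.06 on those labelled day 14, a difference of 2.35 (SE 0.50, adjusted p = 0.0144). The arrays of the labelled days did not overlap for these 3 genes, picked for large differences, nor for 62.5% of all probes. The differences in the db/db + vehicle group were 0.60, 1.19 and 1.68 and those in the WT group 1.28, 0.77 and 2.25. Tnfaip6 and Ptx3 lost their calls without either array labelled day 14 and without labelled day 7 replicate 2.

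The start regions of Ptx3 and Tnfaip6 are shown beside those of the granule genes because both are known targets of inflammatory signalling and differed in the opposite direction. The window, strand and capitals are as given for Ltf.
Ptx3, chr3:66219637-66219936, plus strand: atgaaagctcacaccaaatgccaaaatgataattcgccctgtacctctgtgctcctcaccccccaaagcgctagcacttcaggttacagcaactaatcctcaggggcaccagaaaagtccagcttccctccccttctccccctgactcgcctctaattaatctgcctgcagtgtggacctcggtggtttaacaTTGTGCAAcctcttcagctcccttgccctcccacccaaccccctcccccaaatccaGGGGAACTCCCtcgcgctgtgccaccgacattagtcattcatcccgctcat
Tnfaip6, chr2:52037863-52038162, plus strand: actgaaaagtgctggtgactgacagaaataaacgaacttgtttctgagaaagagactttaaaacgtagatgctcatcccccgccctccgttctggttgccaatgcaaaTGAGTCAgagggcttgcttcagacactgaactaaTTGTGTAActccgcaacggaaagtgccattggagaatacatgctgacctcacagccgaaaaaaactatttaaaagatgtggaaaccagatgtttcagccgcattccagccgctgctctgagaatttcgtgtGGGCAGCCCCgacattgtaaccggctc
The AP-1 letters occurred 1 time, in Tnfaip6, and were held by 7.81% of all windows. Both windows held 1 match to the C/EBP letters, and the NF-kB letters occurred 2 times, overlapping, in Ptx3 and 1 time in Tnfaip6.

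In the matrix and myofibroblast list, 2 of 28 genes were called higher and 0 lower, compared with 0.874% of all named genes called higher. Its median was 0.58, beside 0.47 in the db/db + vehicle group and 0.29 in the WT group. Thbs1, a matricellular protein that activates TGF-beta, had levels of 3.23 and 2.20 on the arrays labelled day 7 and 4.46 and 4.42 on those labelled day 14, a difference of 1.72 (SE 0.46, adjusted p = 0.0343). Acta2 and Tagln, which mark contractile myofibroblasts, had differences of 1.18 and 0.81 that did not pass the test (adjusted p = 0.0687 and 0.178). The number called was 6 without labelled day 7 replicate 1 and 0 without any 1 of the other 3 arrays.

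Of 19 collagen genes, 2 were called higher and 0 lower, with a median of 0.48. Col5a3 and Col5a1, chains of collagen V, which sets the diameter of fibrils, had differences of 1.39 (SE 0.24, adjusted p = 0.00651) and 1.18 (SE 0.35, adjusted p = 0.0473). Col5a3 had levels of 4.22 and 3.55 on the arrays labelled day 7 and 5.34 and 5.20 on those labelled day 14. The chains of the most abundant dermal collagen, Col1a1 and Col1a2, differed by 0.21 and −0.35 (adjusted p = 0.674 and 0.368). Without labelled day 7 replicate 2, 0 collagen genes were called, and without either array labelled day 14, 1 was.

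Proteases of the matrix and their inhibitors went both ways, with 1 of 21 called higher and 2 lower. Timp1, an inhibitor of metalloproteinases, had levels of 4.55 and 4.36 on the arrays labelled day 7 and 5.59 and 6.11 on those labelled day 14, a difference of 1.40 (SE 0.34, adjusted p = 0.0254). Mmp7, matrilysin, had levels of −4.54 and −3.75 on the arrays labelled day 7 and −7.02 and −6.43 on those labelled day 14, a difference of −2.58 (SE 0.41, adjusted p = 0.0049), and Mmp25, a membrane-bound protease of leukocytes, had levels of −3.03 and −3.75 on the arrays labelled day 7 and −5.68 and −5.10 on those labelled day 14 (adjusted p = 0.0267). Mmp7 differed by −2.05 in the db/db + vehicle group and Mmp25 by 0.35. The gelatinase Mmp2 and the stromelysin Mmp3 differed by 0.23 and −0.56 (adjusted p = 0.731 and 0.684). The median of the list, −0.05, turned positive under 5 alternatives.

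The vessel list held the most higher calls of the 34 lists. Of 26 vessel genes tested, 5 were called higher and 0 lower, all 26 had a positive difference, and the median was 0.71. For 21 of the 26 the arrays of the labelled days did not overlap, beside 62.5% of all probes. The summed level of the list ran from 66 to 93.9 times the 75th percentile on the arrays labelled day 7 and from 103 to 106 times on those labelled day 14. Apln, the ligand of the apelin receptor made by endothelial tip cells, had levels of −1.17 and −1.53 on the arrays labelled day 7 and 0.89 and 0.85 on those labelled day 14, a difference of 2.22 (SE 0.43, adjusted p = 0.00969). Aplnr, its receptor, had levels of −1.16 and −2.17 on the arrays labelled day 7 and −0.02 and 0.08 on those labelled day 14, a difference of 1.70 (SE 0.36, adjusted p = 0.0149). Ligand and receptor were both higher on each array labelled day 14 than on either array labelled day 7. They were named because they were called, so this is no further result. Esm1, endocan, a gene of tip cells that is not in this list, had levels of −1.37 and −2.34 on the arrays labelled day 7 and 0.45 and 0.59 on those labelled day 14, a difference of 2.37 (SE 0.48, adjusted p = 0.0119). Cdh5, the cadherin of endothelial junctions, and Tie1, an endothelial receptor kinase, differed by 1.26 and 1.25 (adjusted p = 0.00999 and 0.0134), and Sox17, a transcription factor of arteries, by 1.01 (adjusted p = 0.0243). Pecam1 (CD31) had a difference of 0.96 with an adjusted p of 0.0236 from limma, short of a fold change of 2. Vegfa, the main growth factor of endothelium, had levels of 0.94 and 1.17 on the arrays labelled day 7 and 1.51 and 1.87 on those labelled day 14 (adjusted p = 0.24).

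Labelled day 7 replicate 2 had the lowest summed level of the vessel list among the 4 arrays. Without it, 0 of the list were called and the median was 0.21, and without labelled day 7 replicate 1, 11 were called and the median was 1.00. Without either array labelled day 14, 0 were called, with medians of 0.76 and 0.73. The db/db + vehicle group had a median of 0.48 for the list and the WT group 0.28, with 0 genes called in either, and the difference from the db/db + vehicle group passed the test for 0 genes (lowest adjusted p = 0.71).

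**Figure D4:**
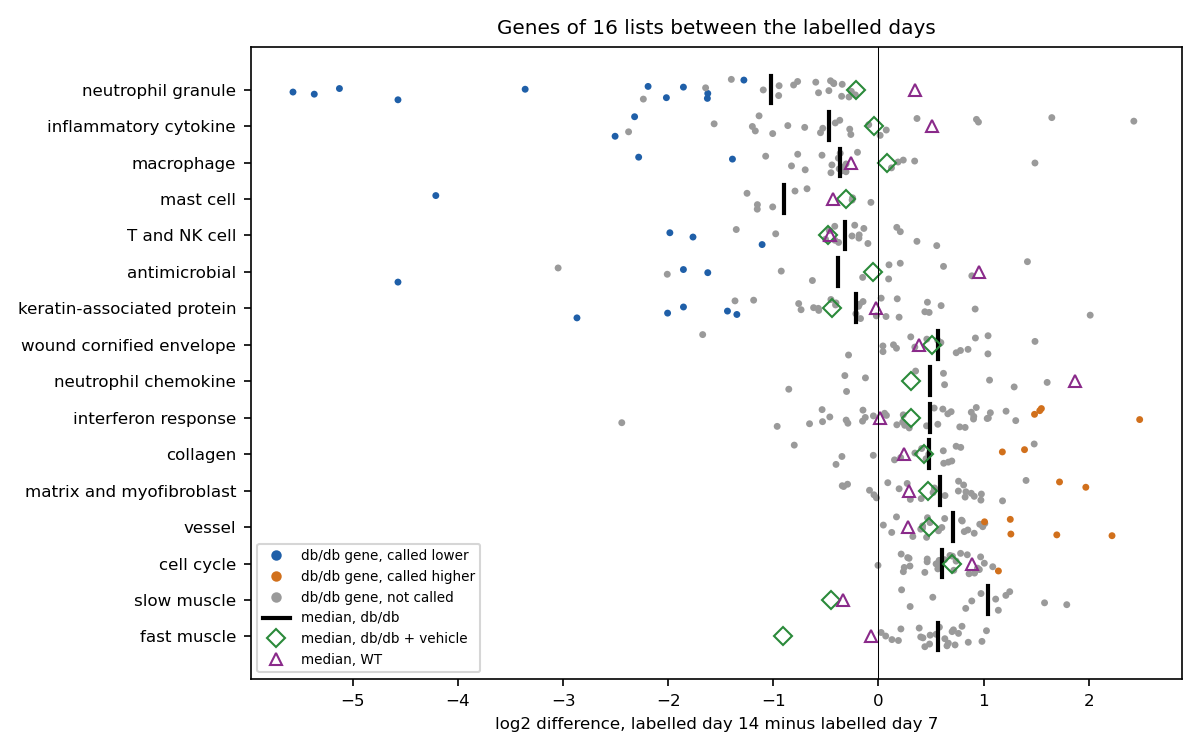
Log2 difference between the labelled days (x axis) for the genes of 16 lists in the db/db group, with called genes in colour, the median of the db/db group as a bar and the medians of the db/db + vehicle (diamond) and WT (triangle) groups. The neutrophil granule median of the db/db group, −1.02, lies left of both other medians, and the vessel median, 0.71, lies right of both.

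The remaining genes with the largest positive differences had other roles. Kcne1l, an accessory subunit of potassium channels, had levels of −4.23 and −6.17 on the arrays labelled day 7 and −2.38 and −2.86 on those labelled day 14, a difference of 2.58 (SE 0.70, adjusted p = 0.0355), with a second probe not called. Tro, the adhesion molecule trophinin, had levels of −2.37 and −3.13 on the arrays labelled day 7 and −0.10 and −0.28 on those labelled day 14, a difference of 2.56 (SE 0.44, adjusted p = 0.00662). Ppp1r3g, which directs a phosphatase to glycogen, differed by 2.44 (SE 0.52, adjusted p = 0.0142). The arrays of the labelled days did not overlap for these 3 genes, also picked for large differences, nor for 62.5% of all probes. Pnliprp2 and Pnlip, which encode pancreatic lipases, and Fam216b and Ifi208 were not well above background on either array labelled day 7, so that they were at least 4.35-fold, 2.36-fold, 2.5-fold and 1.96-fold higher on those labelled day 14. Other probes of Fam216b and Ifi208 were not called, and Pnlip, Pnliprp2 and Ifi208 lost their calls whichever db/db array was left out. In the db/db + vehicle group Pnliprp2 differed by 2.53, Pnlip by 2.44 and Ifi208 by 0.99, and Fam216b did not pass the filter.

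Interferon-induced genes were called higher in part. Of 40 tested, 4 were called higher and 0 lower, with a median of 0.49, beside 0.31 in the db/db + vehicle group and 0.02 in the WT group. Ifit1, which binds viral RNA, had levels of −5.23 and −5.72 on the arrays labelled day 7 and −3.01 and −2.97 on those labelled day 14, a difference of 2.48 (SE 0.49, adjusted p = 0.0104). It differed by 1.81 in the db/db + vehicle group and by 0.19 in the WT group. Isg15, a ubiquitin-like modifier, had levels of 0.18 and 0.28 on the arrays labelled day 7 and 1.77 and 1.67 on those labelled day 14, a difference of 1.48 (SE 0.38, adjusted p = 0.0291). Usp18, which removes Isg15 from proteins, and Rtp4 differed by 1.55 and 1.53 (adjusted p = 0.0176 and 0.0177). A second probe of Isg15 was not called. The guanylate-binding proteins, which respond mainly to interferon gamma, were not called, with differences from −2.44 for Gbp6 (adjusted p = 0.123) to 0.56 for Gbp3 (adjusted p = 0.265). The number called was 3 without labelled day 7 replicate 1, 0 without labelled day 7 replicate 2 or labelled day 14 replicate 2, 1 without labelled day 14 replicate 1 and 6 with quantile normalization.

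Proliferation genes had small differences in one direction. Of 30 cell cycle genes, 1 was called higher and 0 lower, 29 had a positive difference, and the median was 0.61. Ccna2, cyclin A2, had levels of −0.08 and −0.07 on the arrays labelled day 7 and 0.77 and 1.37 on those labelled day 14, a difference of 1.14 (SE 0.25, adjusted p = 0.0166). Mki67, the Ki-67 antigen, differed by 0.29 and Top2a, a topoisomerase of dividing cells, by 0.84 (adjusted p = 0.533 and 0.0893). The summed level ran from 45.5 to 46.4 times the 75th percentile on the arrays labelled day 7 and from 61.3 to 82.7 times on those labelled day 14. The medians of the db/db + vehicle and WT groups, 0.70 and 0.89, lay above that of the db/db group.

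Keratinocyte genes were not called between the labelled days. In the lists of the wound cornified envelope, wound keratins and alarmins, and differentiated epidermis, 0 of 19, 0 of 14 and 0 of 37 genes were called, with 0, 1 and 1 passing the unadjusted rule, the latter both lower. Krt6a and Krt6b, keratins of the wound edge, differed by 0.48 and 0.46 (adjusted p = 0.73 and 0.606), and Krt16 had levels of 6.72 and 6.63 on the arrays labelled day 7 and 6.09 and 7.28 on those labelled day 14. Krt10 and Krt1, keratins of the suprabasal epidermis, differed by 0.08 and 0.03. Sprr1a, a precursor of the cornified envelope, had levels of 2.33 and 4.46 on the arrays labelled day 7 and 2.66 and 4.47 on those labelled day 14. In Krt16 and Sprr1a the replicates of one labelled day differed by more than the labelled days, so that no difference was detectable with 2 arrays. Of 14 antimicrobial genes, the 3 called lower, Camp, Lcn2 and Pglyrp1, are also neutrophil granule genes. The epidermal Defb3 and Defb14 differed by −0.15 and 0.10 (adjusted p = 0.92 and 0.954). Keratin-associated proteins, which fill the hair shaft, had 5 of 31 called lower, all with levels below the 75th percentile on each array. They reached from −2.01 for Krtap19-2 to −1.35 for Krtap16-3, and Krtap1-5, which neither array labelled day 14 detected well above background, was at least 1.98-fold higher on those labelled day 7 and was not called with a floor on dim signals. The number called was 9 without labelled day 7 replicate 1, 0 without labelled day 7 replicate 2, 2 without labelled day 14 replicate 1 and 1 without labelled day 14 replicate 2, and quantile normalization turned their median from −0.22 to 0.11. Of 20 hair keratin genes, 0 were called by either rule.

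Genes of the tissues beside the wound varied between replicates. All 12 slow muscle and all 24 fast muscle genes had positive differences, with medians of 1.04 and 0.56, and 0 were called by either rule. Myh7, the slow myosin heavy chain, had levels of 4.48 and 2.26 on the arrays labelled day 7 and 5.65 and 4.67 on those labelled day 14, and the summed level of the fast muscle list ran from 515 to 967 times the 75th percentile on the arrays labelled day 7 and from 739 to 1188 times on those labelled day 14. Labelled day 7 replicate 2 had the lowest Myh7 level, and without that array the medians were 0.16 for slow and −0.03 for fast muscle. Without labelled day 7 replicate 1 they were 2.12 and 0.95. Adipocyte genes had 0 of 22 called and 1 lower by the unadjusted rule, with Adipoq, adiponectin, at 0.02 and Lep, leptin, at −1.32 (adjusted p = 0.99 and 0.338). The erythroid genes tested, 5 in number, all had negative differences with a median of −1.19, and Car1, a carbonic anhydrase of red cells, was called (−1.19, adjusted p = 0.0117). The median was −1.99 without labelled day 14 replicate 1 and −0.39 without labelled day 14 replicate 2, and Car1 lost its call without either of these arrays, without labelled day 7 replicate 2, with normexp background correction, with quantile normalization and with the 4 db/db arrays fitted alone. Hba-a1, an alpha globin, had levels of 6.80 and 6.03 on the arrays labelled day 7 and 6.05 and 4.74 on those labelled day 14. RNA of muscle and blood varied between the arrays in this way, and its part in the other results was not tested.

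The remaining lists of skin cells held few calls. Of 24 sebaceous and lipogenic genes, 2 were called lower, namely Dgat2l6, an acyltransferase of wax synthesis (−2.70, adjusted p = 0.034), and Scd3, a desaturase of sebocytes (−1.27, adjusted p = 0.0478), and the median was 0.02. Of 10 melanocyte and 9 Schwann cell and nerve genes, 0 were called by either rule, with medians of −0.14 and 0.48. Of 14 immediate early and heat shock genes, which respond to handling of tissue, 0 were called by either rule, with a median of 0.46.

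Genes of energy metabolism were not called. Of 26 genes of glycolysis and hypoxia, 0 were called by either rule, with differences of −0.40 to 0.62, and of 38 genes of the respiratory chain 0 were called, with differences of −0.40 to 0.44. The growth factor list had 0 of 18 called and 2 lower by the unadjusted rule, with Areg and Ereg, ligands of the EGF receptor, at 0.27 and 0.49. Of 19 clock genes, 1 was called lower and 0 higher. Per3, a repressor of the circadian clock, had levels of −4.87 and −3.81 on the arrays labelled day 7 and −5.91 and −6.49 on those labelled day 14 and a difference of −1.86 (SE 0.34, adjusted p = 0.00758), and Clock, an activator, differed by 0.16 (adjusted p = 0.504). Per3 differed by −1.76 in the db/db + vehicle group and by 0.64 in the WT group.

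The same difference between the labelled days was then set against that of the db/db + vehicle group, of the same strain and scanned on the same days, to ask which differences were larger in untreated wounds. Of 30511 probes tested, 1 (0.00328%) passed the test of the difference of differences, and 898 (2.94%) passed an unadjusted p below 0.05 with a fold change above 2. The probe was that of Il10, which differed by −2.51 in the db/db group and by 0.30 in the db/db + vehicle group, a difference of −2.81 (SE 0.27, adjusted p = 0.0344). The db/db + vehicle group on its own had 2434 of 30020 probes called (8.11%), 407 (1.36%) higher and 2027 (6.75%) lower. Leaving out any 1 of the 8 arrays gave between 3 and 83 probes.

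Against the WT group, 307 of 30890 probes (0.994%) passed the test of the difference of differences, 14 (0.0453%) with a more positive and 293 (0.949%) with a more negative difference in the db/db group. Of the 307, 277 were also called between the labelled days in the db/db group. Genes that passed it with a more negative difference included Lcn2, Il10, Per3, Itgb2l, Rpf1, Ppm1n, Dnm3os and Snhg7, and genes with a more positive one included Plod2, Elovl5 and Fosb. Lcn2 differed by −1.62 in the db/db group and by 1.77 in the WT group. In the WT group alone, 5 of 30206 probes (0.0166%) were called, and 1332 (4.41%) passed the unadjusted rule. The count against the WT group was 53 without WT labelled day 14 replicate 2 and 1181 without WT labelled day 14 replicate 1.

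**Figure D5:**
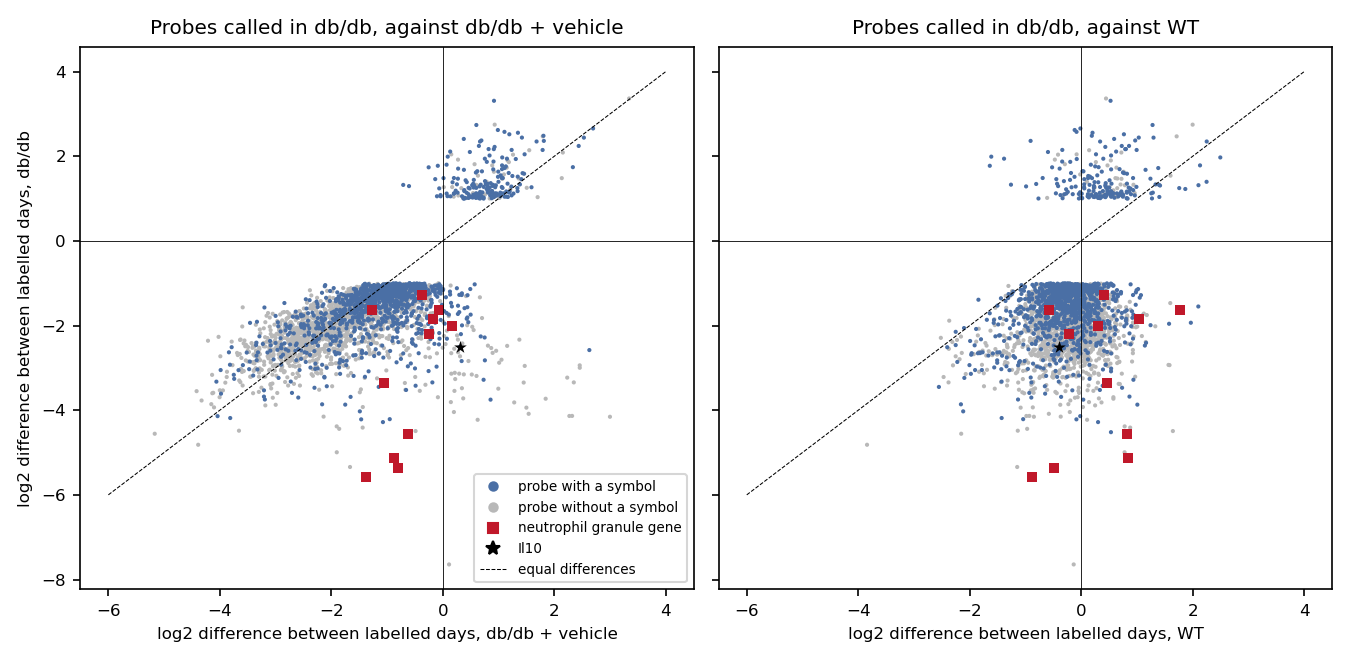
Log2 difference between the labelled days in the db/db group (y axis) against that in the db/db + vehicle group (left, x axis) and in the WT group (right, x axis) for the 2673 probes called in the db/db group. Of the probes called lower, 2358 of 2454 had the same sign in the db/db + vehicle group, and the neutrophil granule genes (squares) and Il10 (star) lie closer to 0 there than in the db/db group. All points were picked for a call in the db/db group, so smaller differences in another group are no further result. The difference from the db/db + vehicle group passed the test for Il10 and for 0 of the 30 neutrophil granule genes tested.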

How the data were processed

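Total RNA of whole wounds was hybridised to 1-colour Agilent mouse arrays, 1 array per sample, and read with Feature Extraction 11.0.1.1 per the file headers. The deposited intensity of each spot was background-subtracted and spatially detrended by the authors' software, with no scaling between arrays. The authors also deposited a table of ratio values, which equal the intensity over the 75th percentile of the array and which were used as an alternative. Here, log2 of the deposited processed intensity minus log2 of the array's 75th percentile over non-control probes was used. Spots of a probe were averaged, giving 39429 probes, of which 69.56% had a symbol.

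Probes detected well above background by the 2 arrays of at least 1 group went into limma (version 3.58.1, R 4.3.3), as 1 model of 8 groups of 2 arrays with 8 residual degrees of freedom and Benjamini-Hochberg adjustment of p-values. A call needed an adjusted p below 0.05 and a fold change above 2. Differences of differences were contrasts of the same kind of model. No spot was saturated, and the number of arrays limits the precision. Where a group was not well above background on both arrays, the fold change is a lower bound, from the other group's mean over the dim group's mean of the higher of the dim signal and the lowest signal well above background. The procedure was tested on simulated data.

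In 34 gene lists, each gene was read through its brightest probe. Genes were named as the 8 called genes of each direction with the largest difference, the 4 with the largest bound, the first 2 and up to 4 called genes of each list, and Lepr, Xist and Ddx3y. Members and lists were chosen with earlier results of these data known, and further genes named in the text, and the lists of long noncoding RNAs, hyaluronan, collagen processing, further endothelial, basophil and eosinophil, B cell and granulocyte transcription factor genes, after their values were seen. Alternatives were another background correction, normalization, filter, floor or block, the arrays compared alone, and each array left out. Promoters came from RefSeq (GRCm38.p6). Estrogen-treated wounds entered only the shared model. Some called genes of the lists are not reported here by name.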

Additional observations from a re-analysis of the deposited data

Results flagged for a closer look

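The difference between the labelled days was tested against that of the other groups. Il10 differed from the db/db + vehicle group by −2.81 (SE 0.27, adjusted p = 0.0344 from limma), with −2.51 in the db/db group and 0.30 in the db/db + vehicle group. From the WT group, in which Il10 differed by −0.40, it differed by −2.11 (adjusted p = 0.0136). Lcn2 differed from the WT group by −3.39 (adjusted p = 0.0412), with −1.62 in the db/db group and 1.77 in the WT group, so that the groups went opposite ways. Per3 differed by −2.50 (adjusted p = 0.0459), with −1.86 against 0.64. Rpf1 differed by −2.78 (adjusted p = 0.0118), with −3.43 against −0.65, and Ppm1n by −3.81 (adjusted p = 0.0241), with −3.42 against 0.39. In the db/db + vehicle group Rpf1 differed by −2.08 between the labelled days and Ppm1n by −0.49. In Rpf1 and Ppm1n the db/db arrays labelled day 14 were not well above background, so the sizes rest on dim signals there. Itgb2l differed by −4.88 (adjusted p = 0.0228), but it was not well above background on the db/db arrays labelled day 14 and did not pass the filter in the WT group, so this value sets a detected signal against background and is no measure of size.

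Long noncoding RNAs that differed from the WT group were Dnm3os, by −3.14 (−3.18 against −0.04, adjusted p = 0.0228), Mir17hg, by −1.95 (−1.38 against 0.57, adjusted p = 0.0362), Snhg7, by −1.93 (−2.31 against −0.38, adjusted p = 0.0359), and Dancr, by −1.85 (−1.69 against 0.16, adjusted p = 0.0127). In the db/db + vehicle group the same RNAs, in this order, differed by −3.40, −1.38, −2.22 and −1.42 between the labelled days. Ear6, an eosinophil ribonuclease, differed by −1.83 (−1.85 against −0.02, adjusted p = 0.0252) and Ambp, which encodes a subunit of the serum inhibitor bound to hyaluronan, by −3.71 (−1.32 against 2.39, adjusted p = 0.0347). In the db/db + vehicle group Ear6 differed by −0.90 and Ambp by 0.81. Differences were more positive in the db/db group for Plod2, by 2.49 (2.15 against −0.34, adjusted p = 0.0465), for Fosb, an immediate early gene, by 5.65 (1.31 against −4.34, adjusted p = 0.041), and for Elovl5, a fatty acid elongase, by 1.44 (0.38 against −1.06, adjusted p = 0.037). Plod2 differed by 1.24 in the db/db + vehicle group.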

How the results depend on the processing

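The number of probes called in the db/db group, 2673, was 1104 with normexp background correction, 1679 with quantile normalization, 314 with only the 4 db/db arrays fitted, 4170 by adjusted p whatever the fold and 867 with 1 probe per gene, an alternative chosen after seeing the data. Leaving out 1 array gave 864 to 3888, with 864 without labelled day 7 replicate 2, 980 without labelled day 14 replicate 2 and 1170 without labelled day 14 replicate 1. The 7 other alternatives stayed within 1.5 times. Replicate numbers did not pair the samples (correlation of deviations 0.018), and a replicate block gave 2530 calls.

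The single probe that differed from the db/db + vehicle group became 0 with no filter, with normexp and with a replicate block, 5 with the arrays compared fitted alone, 898 unadjusted, and 3 to 83 with 1 array left out, 83 without db/db labelled day 7 replicate 1, 38 without db/db labelled day 7 replicate 2 and 29 without vehicle labelled day 7 replicate 1. The 307 probes that differed from the WT group became 139 with no filter, 14 with normexp, 0 with the arrays compared fitted alone, 155 with quantile normalization, 128 with a replicate block and 2957 unadjusted. With 1 array left out they became 53 to 1181, namely 53 and 1181 without WT labelled day 14 replicates 2 and 1, 1076 without WT labelled day 7 replicate 1, 1097 and 101 without db/db labelled day 7 replicates 1 and 2, and 74 and 112 without db/db labelled day 14 replicates 1 and 2.

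The medians of 17 of the 34 lists changed sign under at least 1 alternative. That of matrix proteases was 0.065 with normexp, 0.11 with quantile normalization and −0.056 to 0.21 with 1 array left out, positive without labelled day 14 replicate 1 (0.097), labelled day 14 replicate 2 (0.11) or labelled day 7 replicate 1 (0.21). That of sebaceous genes was −0.071 with normexp and −0.25 to 0.13 with 1 array left out, negative without labelled day 14 replicate 1 (−0.15) and labelled day 7 replicate 1 (−0.25). That of clock genes was 0.13 with normexp and −0.15 to 0.011 with 1 array left out, positive without labelled day 7 replicate 2, that of antimicrobial genes −1.14 to 0.047, positive without labelled day 14 replicate 1, and that of keratin-associated proteins 0.11 with quantile normalization. Without labelled day 7 replicate 1 the medians were −0.31 for the cornified envelope, −0.61 for differentiated epidermis, −0.26 for hair keratins, 0.027 for CC chemokines and −0.020 for alternatively activated macrophages. Without labelled day 7 replicate 2 they were 0.11 for adipocytes and −0.025 for fast muscle, without labelled day 14 replicate 1 −0.033 for immediate early genes, without labelled day 14 replicate 2 −0.45 for wound keratins, 0.11 for MHC class II and −0.12 for growth factors, and with quantile normalization 0.12 for melanocytes. The 64 named genes followed under the alternatives were picked among those called. That all 64 kept their direction follows largely from this choice and is no further result. Of their 820 values, 277 fell short of the threshold, and most of the genes lost their call without at least 1 array. The causes were not tested. Dim probes carry most lower calls, and 2 arrays per labelled day limit all counts.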

Other observations

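Genes of other leukocytes were grouped after their values were seen, and their counts are descriptions with no test. Of all named genes, 4.28% were called lower and 0.874% higher. Of 12 basophil and eosinophil genes, 6 were called lower and 0 higher on the db/db arrays labelled day 14, with a median of −1.71, beside −0.26 in the db/db + vehicle group and −0.53 in the WT group. All 12 had negative differences. The 6 not called ran from −3.72 for Ms4a3 to −0.33 for Ccr3, and the labelled days overlapped for Siglecf, Il5ra and Ccr3. Epx, Prg3, Il5 and Il13 were not tested. Il4, the cytokine of type 2 immunity made by basophils, had levels of −3.15 and −3.52 on the arrays labelled day 7 and −5.88 and −6.58 on those labelled day 14. Prg2, the major basic protein of eosinophils, had levels of −4.56 and −4.15 on the arrays labelled day 7 and −6.16 and −6.23 on those labelled day 14, a difference of −1.84. Cd200r3, a basophil receptor, differed by −2.17, and only 1 array labelled day 14 detected it well above background. In Il4 and Prg2 both arrays labelled day 7 lay above both labelled day 14, and 62.5% of all probes did not overlap in either direction.

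Of 12 B and plasma cell genes, 6 were called lower and 0 higher, compared with 4.28% of all named genes called lower. Their median was −1.53, beside −0.47 and −0.20 in the db/db + vehicle and WT groups. The 6 not called ran from −2.96 for Jchain to 0.08 for Xbp1. Mzb1, a chaperone of antibody assembly, had levels of −3.88 and −1.82 on the arrays labelled day 7 and −5.61 and −5.41 on those labelled day 14, a difference of −2.66. Cd79a, the signalling chain of the B cell receptor, differed by −1.37, and only 1 array labelled day 14 detected it well above background. Of 8 granulocyte transcription factors, 2 were called lower: Cebpe, needed for secondary granule genes, with levels of 0.20 and −1.32 on the arrays labelled day 7 and −2.59 and −3.15 on those labelled day 14, and Gfi1, a repressor in granulocyte precursors, with levels of −2.18 and −2.92 on the arrays labelled day 7 and −4.43 and −4.88 on those labelled day 14. Cebpa and Spi1, which act earlier in the myeloid lineage, differed by −0.12 and −0.93 and were not called.

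Of 28 further endothelial genes, also grouped after their values were seen, 11 were called higher and 0 lower. Of all named genes, 0.874% were called higher. Esm1, picked earlier for its large difference, is among the 28. The median of the 28 was 0.84, beside 0.50 in the db/db + vehicle group and 0.36 in the WT group. Differences were positive for 25 and negative for 3, namely Selp (−0.35), Erg (−0.11) and Fli1 (−0.09). The 17 not called ran from −0.35 for Selp to 1.30 for Sele. Pcdh12, a protocadherin of endothelium, had levels of −1.40 and −2.11 on the arrays labelled day 7 and −0.17 and −0.05 on those labelled day 14, a difference of 1.64. Thbd, thrombomodulin, which restrains clotting on vessel walls, had levels of 1.86 and 1.85 on the arrays labelled day 7 and 3.28 and 3.40 on those labelled day 14, a difference of 1.49. Has2, the synthase of long hyaluronan, was called higher beside Has1, Tnfaip6 and Ptx3, with levels of −1.27 and −1.93 on the arrays labelled day 7 and −0.05 and 0.05 on those labelled day 14.

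Of 18 genes that modify or fold collagen, also grouped after their values were seen, 3 were called higher and 0 lower. The share of all named genes called higher was 0.874%. All 18 had a positive difference, and the median was 0.49, beside 0.64 and 0.38 in the db/db + vehicle and WT groups. Plod2, which hydroxylates lysines for cross-links, had levels of −1.32 and −2.46 on the arrays labelled day 7 and 0.28 and 0.24 on those labelled day 14, a difference of 2.15. It differed by 1.24 in the db/db + vehicle group and by −0.34 in the WT group. Serpinh1, the collagen chaperone Hsp47, and P4ha2, a subunit of prolyl hydroxylase, differed by 1.12 and 1.04.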
